A study of Rattus norvegicus with 48 samples.

Results

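miR-221 and miR-222 are small RNAs that are cut from neighbouring hairpins on the X chromosome. The 3 members described here, rno-miR-221-3p, rno-miR-222-3p and rno-miR-221-5p (rno stands for the rat and is left out from here on), were taken by name from the 645 mature rat miRNAs counted in plasma, and all 3 were listed. Plasma came from 12 young adult male rats with a round drill-hole defect in the skull roof (calvaria). Their strain is given as Sprague-Dawley in the methods of the paper and as Wistar in its abstract. Blood was sampled from the tail vein before surgery (baseline) and at weeks 1, 4 and 8, which gave 48 samples. The 6 strong regenerators were labelled good and the 6 weak regenerators were labelled bad by their bone healing, so that each group and time point held 6 rats. All rats carried the same defect, which was left empty or filled with a collagen-hydroxyapatite scaffold, either plain, loaded with plasmid DNA for BMP2 and miR-590-5p, or loaded with extracellular vesicles of Wharton's jelly stromal cells. The rats were the extremes of a larger cohort, the fillings were unevenly spread over both groups, and the samples used here hold no rats without a defect, so that time after surgery, age and sampling occasion cannot be told apart. The labels give the regeneration of the baseline samples as unknown, and these samples were grouped by the later label of the same animal.

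A mature miRNA is a short RNA that guides a silencing complex to messenger RNAs, mainly through its seed, the bases 2 to 8 from its 5′ end. Each hairpin can yield a miRNA from its 5′ arm and one from its 3′ arm, and usually one arm dominates. miR-221-3p and miR-222-3p are known from endothelium, vascular smooth muscle and blood cells, where they target the receptor KIT and the cell cycle inhibitors p27 and p57, and they have been linked to vessel growth, smooth muscle proliferation and the regulation of osteoblasts. In blood they travel in vesicles, bound to proteins or inside cells left in the plasma.

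The mature sequences are shown because the members are counted apart by them although the 3p miRNAs share a seed. They are given 5′ to 3′ from RefSeq (assembly GRCr8) with the seed in capitals.
miR-221-3p: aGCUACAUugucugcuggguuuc
miR-222-3p: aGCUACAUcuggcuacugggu
miR-221-5p: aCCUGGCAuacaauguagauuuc
miR-222-5p: gGCUCAGUagccaguguagau
The first 8 bases of miR-221-3p and miR-222-3p were identical, and no other of the 693 mature entries of the table held the seed GCUACAU. Over the 21 bases that both have, 11 were the same and 10 differed, counted from 1 at the 5′ end with the base of miR-221-3p first: U9C, G10U, U11G, C12G, U13C, G14U, C15A, U16C, G17U and U20G. This is more than the single mismatch allowed when reads were assigned. The seed of miR-221-5p was shared with no other entry. miR-222-5p, the other arm of the miR-222 hairpin, is not a member and is shown for comparison.

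Both hairpins lie on the plus strand of chromosome X in GRCr8, with 458 bases between them. Mir222, which comes first, spans 103 bases at chrX:6022621-6022723, and Mir221 spans 109 bases at chrX:6023182-6023290. The hairpins are shown with the 5p arm and then the 3p arm in capitals, since the ratios below compare these arms.
Mir222: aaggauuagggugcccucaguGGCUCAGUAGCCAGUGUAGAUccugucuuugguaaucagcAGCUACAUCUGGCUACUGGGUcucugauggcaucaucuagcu
Mir221: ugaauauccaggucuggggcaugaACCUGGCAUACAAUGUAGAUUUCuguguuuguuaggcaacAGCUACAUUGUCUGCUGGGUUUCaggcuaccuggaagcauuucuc
Mature miR-221-3p lies at chrX:6023246-6023268, miR-221-5p at chrX:6023206-6023228 and miR-222-3p at chrX:6022682-6022702.

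The libraries held between 393259 and 1586398 miRNA reads, with a median of 796311. The week 8 libraries stood apart. UniSp2, a synthetic RNA added in equal amount to each lysate, gave between 91.1 and 144 reads per 1000 miRNA reads at week 8 (median 120) and between 23.3 and 60.4 at the other time points (median 37.4). Levels are given in RPM, the reads of a miRNA per 1000000 miRNA reads of its sample, which measure a share of plasma miRNA and not an amount per volume. Per the methods, the libraries were pooled and sequenced on 1 flow cell. Whether the week 8 samples were extracted or made into libraries separately is not given in the sources used here, so such a batch and the time point cannot be told apart. The libraries carry no stated molecular identifiers, and the counting errors given here cover the counting alone.

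miR-221-3p was by far the most abundant of the 3 members. It took 0.441% of all miRNA reads, with 1423 to 7180 reads per sample, and its mean level ranked 43 among the 645 miRNAs. miR-222-3p, with 244 to 1508 reads per sample, had a mean of 694 ± 112 RPM over the 48 samples (SD) against 4407 ± 1456 RPM for miR-221-3p. miR-221-5p had 2 to 25 reads per sample and a mean of 10.4 ± 5.41 RPM. The order miR-221-3p, miR-222-3p, miR-221-5p held in each of the 48 samples without overlap. The reads span whole mature miRNAs of similar length and were not divided by length, and differences in how well each sequence is ligated were not measured. miR-222-5p was near the limit of detection, with 0 to 5 reads per sample, 73 reads in all and none in 19 of the 48 samples.

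miR-221-3p rose at week 8. The lowest, median and highest levels of the strong regenerators were 2047, 3009 and 4052 RPM before surgery, 2639, 3952 and 5725 RPM after 1 week, 2197, 4402 and 5379.8 RPM after 4 weeks, and 4615, 5782 and 8112 RPM after 8 weeks. In the weak regenerators they were 3290.1, 4156 and 4292 RPM before surgery, then 3331, 4055 and 5474 RPM, then 2379, 3471 and 4756 RPM, and last 4832, 6434 and 6902 RPM. All 12 week 8 values lay above all 12 baseline values, while the values at weeks 1 and 4 overlapped with those at baseline. How many other miRNAs separated as fully was not counted, and changes at week 8 were common, as given below. The mean rose from 3511 ± 772 RPM at baseline to 6226 ± 1183 RPM at week 8 (SD, n = 12), and its rank among the miRNAs moved from 48 to 31. Within rats, the level was higher at week 8 than at baseline in 12 of 12, with a median log2 change of 0.81 and a range from 0.17 in rat 26 to 1.61 in rat 17.

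In edgeR's quasi-likelihood test with Benjamini-Hochberg adjustment over all miRNAs tested (FDR), the fold change of miR-221-3p at week 8 was 1.86, a log2 fold change of 0.90 (SE 0.13, FDR = 6.68e-08). At an FDR under 0.05, 40.3% of the 620 miRNAs tested at week 8 were called, 14.2% as higher and 26.1% as lower. miR-221-3p was also higher at week 8 than at week 4, by 0.73 on the log2 scale (SE 0.13, FDR = 4.66e-06), a comparison in which 40% of the 532 miRNAs tested were called. Tested over the rats alone, the difference between weeks 8 and 4 had an exact sign-flip p = 0.000488 (two-sided, higher in 12 of 12 rats), the smallest that 12 rats allow, and an adjusted p = 0.00439 over 9 tests. Of the 310 miRNAs with a mean of at least 10 RPM, 28 had a larger log2 fold change at week 8 than miR-221-3p. The rise was found in both groups, with log2 fold changes of 0.98 (SE 0.18, FDR = 1.94e-05) in strong and 0.82 (SE 0.18, FDR = 0.000286) in weak regenerators by edgeR, where 34.4% and 31.9% of the miRNAs tested were called.

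The earlier weeks were less clear for miR-221-3p. At week 1 its mean level was 4145 ± 956 RPM (SD, n = 12), 9 of 12 rats were above their baseline, and the log2 fold change of 0.34 (SE 0.13, edgeR) passed the test narrowly with an FDR of 0.0490, where 21.6% of the 232 miRNAs tested were called. The call was lost with the rat as a block (log2 fold change 0.33, FDR = 0.0662), in each of the other planned settings and without any 1 of 11 of the 12 rats, and the exact sign-flip test over rats gave p = 0.0684 (adjusted p = 0.308 over 9 tests). At week 4 the mean was 3746 ± 1055 RPM (SD, n = 12), 6 of 12 rats were above baseline, and the log2 fold change of 0.17 (SE 0.13, FDR = 0.489) did not pass, against 4.19% called of 645 miRNAs. Levels at weeks 4 and 1 differed by -0.17 on the log2 scale (SE 0.13, FDR = 0.622), and none of the 645 miRNAs was called between these weeks. The order of the mean levels was thus week 8, week 1, week 4, baseline, of which week 8 was separated from its neighbour, week 1, by 0.60 on the log2 scale (higher in 12 of 12 rats, exact sign-flip p = 0.000488, adjusted p = 0.00293 over 18 tests), while the other neighbours did not differ beyond the spread over rats.

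**Figure D1:**
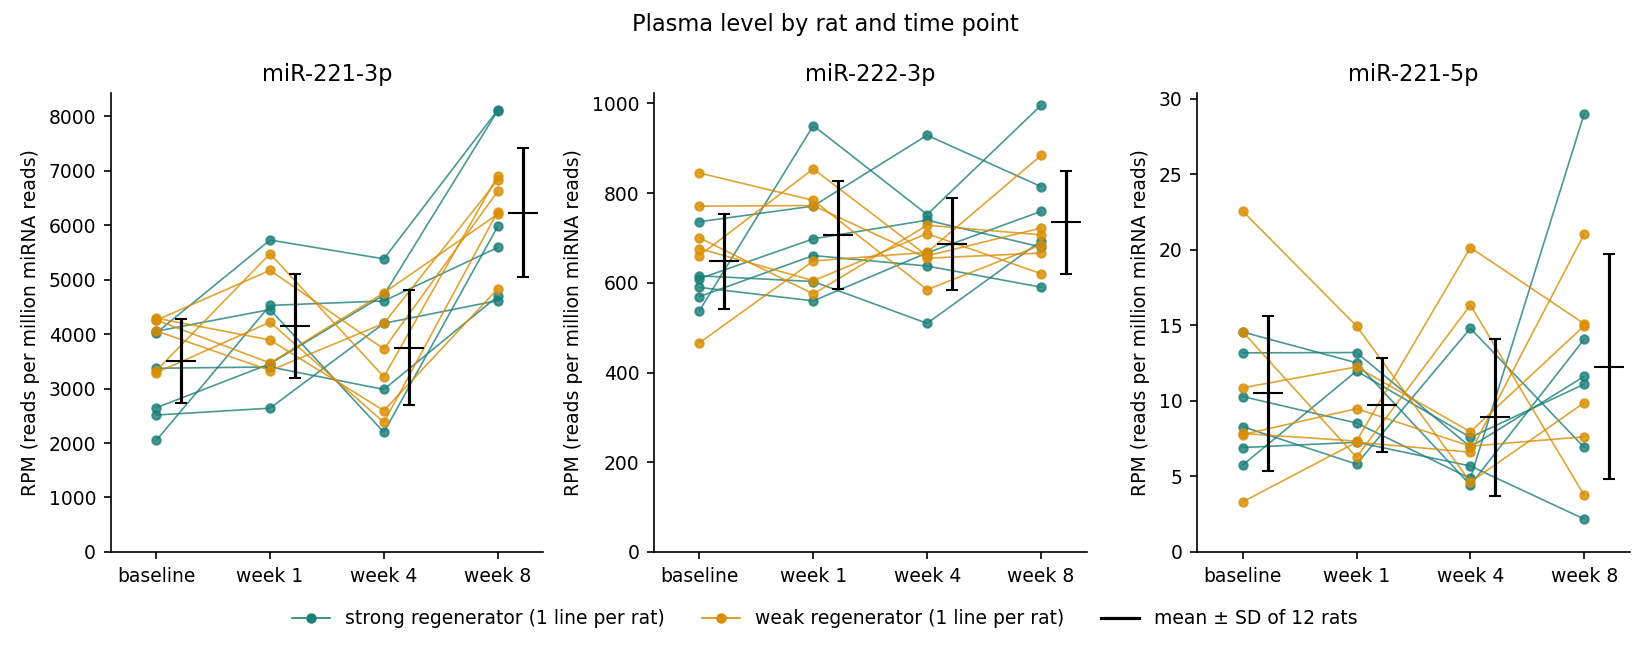
Level of each member in RPM (vertical axes, from 0) at baseline and weeks 1, 4 and 8, with 1 line per rat, strong regenerators in green, weak regenerators in orange, and the mean ± SD of 12 rats in black. The week 8 values of miR-221-3p, from 4615 to 8112 RPM, lie above all baseline values, while miR-222-3p and miR-221-5p overlap between all time points.

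miR-222-3p changed little. In the strong regenerators its lowest, median and highest levels were 538, 599.5 and 736 RPM before surgery, 559.7, 679 and 951 RPM after 1 week, 509.7, 703 and 929 RPM after 4 weeks, and 590.3, 726 and 996 RPM after 8 weeks. The weak regenerators had 466, 688 and 845 RPM before surgery, then 575, 711 and 854 RPM, then 585, 664 and 728 RPM, and last 620.5, 696 and 884 RPM. The ranges overlapped at every time point and between both groups. From 648 ± 106 RPM at baseline, the mean went to 707 ± 121, 687 ± 102 and 735 ± 114 RPM at weeks 1, 4 and 8 (SD, n = 12).

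By edgeR, the log2 fold changes of miR-222-3p against baseline were 0.21 at week 1 (SE 0.09, FDR = 0.0946) and 0.17 at week 4 (SE 0.09, FDR = 0.336), which did not pass. At week 8 the log2 fold change of 0.23 (SE 0.09, FDR = 0.0379) passed, with 9 of 12 rats above their baseline, 6 strong and 3 weak. The exact sign-flip test over rats, which compares the samples of each rat, did not pass for the same change (mean log2 difference 0.18, p = 0.132, adjusted p = 0.476 over 18 tests). The edgeR call was lost when libraries were scaled by their total (log2 fold change 0.18, FDR = 0.162) and without rat 2, 21 or 25 (FDR = 0.0618, 0.0524 and 0.123), and the estimate was 0.40 without rat 23. The week 8 levels were not distinguishable from those of week 4 (log2 fold change 0.06, SE 0.09, FDR = 0.615 by edgeR), and the exact sign-flip test over rats between these weeks gave p = 0.183 (higher in 7 of 12 rats). The order of the means was again week 8, week 1, week 4, baseline, and no neighbours differed beyond the spread over rats (exact sign-flip p of at least 0.352).

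miR-221-5p was too sparsely counted for small changes to be seen. Its lowest, median and highest levels over the 12 rats were 3.32, 9.29 and 22.6 RPM before surgery, 5.81, 9.01 and 14.96 RPM after 1 week, 4.43, 6.98 and 20.2 RPM after 4 weeks, and 2.18, 11.4 and 29.01 RPM after 8 weeks. The time points overlapped almost wholly. The log2 fold change at week 8 was 0.29 (SE 0.29, edgeR FDR = 0.441), with a 95% interval from -0.28 to 0.86, and 5 of 12 rats were above baseline. At week 4 it was -0.15 (SE 0.29, FDR = 0.854). At week 1 it was 0.03 (SE 0.29), and no FDR was given because the mean lay under the abundance filter of 36.6 RPM in that comparison. Counting alone would give coefficients of variation of 37%, 38%, 40% and 46% at baseline and weeks 1, 4 and 8. Those observed were 49%, 32%, 58% and 61%, which is above counting at all time points but week 1. The spread of miR-221-3p (19% to 28%) was far above its counting error of 1.6% to 1.9%.

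The direction of the week 8 changes depended on the scale. With UniSp2 reads in place of the miRNA total, all members were lower at week 8 than at baseline by edgeR, with log2 fold changes of -1.05 for miR-221-3p (FDR = 2.19e-07), -1.67 for miR-222-3p (FDR = 3.59e-16) and -1.63 for miR-221-5p (FDR = 1.81e-05). On this scale the 310 abundant miRNAs had a median of -2.01. Relative to that median, miR-221-3p stood 0.97 higher, miR-222-3p 0.34 higher and miR-221-5p 0.39 higher, against 1.02, 0.36 and 0.41 relative to the median of -0.12 under the main scaling (TMM, which equalizes the bulk of the miRNAs). A change of library scale shifts all miRNAs by nearly the same amount, so the place of each member among them was bound to move little. The sign against 0 changed for all 3. At week 1 the spike-in scale left miR-221-3p at 0.01 (FDR = 0.976) and miR-222-3p at -0.08 (FDR = 0.735).

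**Figure D2:**
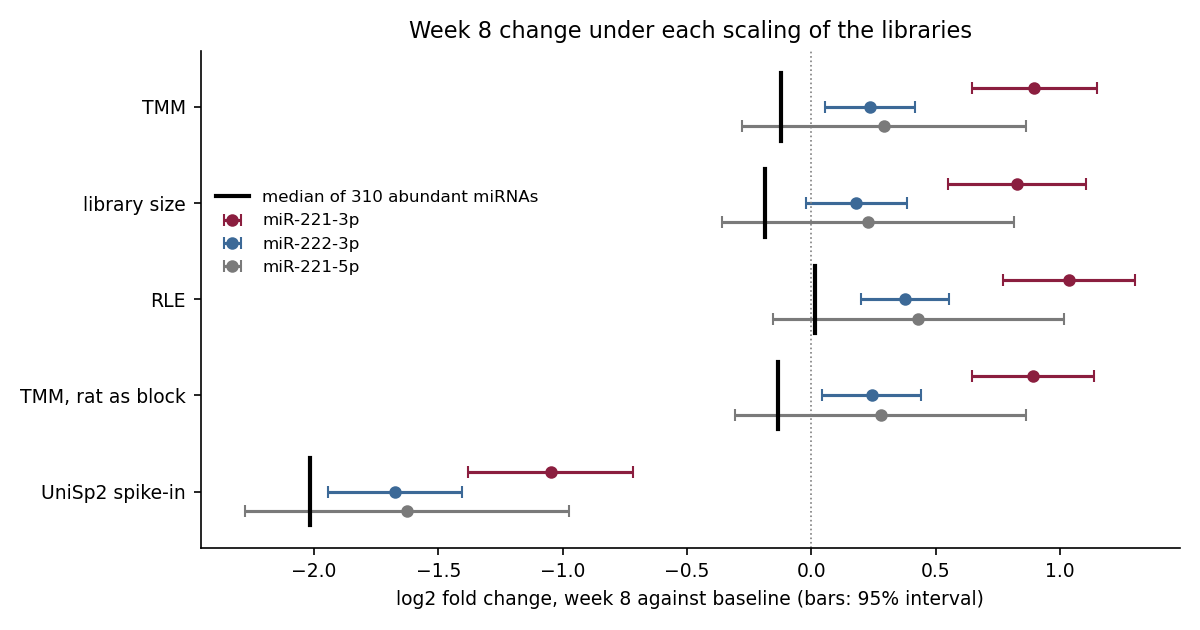
Log2 fold change at week 8 against baseline (horizontal axis, bars of 95% intervals from the edgeR fit) of the 3 members under 5 settings of the fit, with the median of the 310 abundant miRNAs as a black line. miR-221-3p lies 0.97 to 1.02 above that line in each setting, whereas its value goes from 0.90 with TMM to -1.05 with the spike-in. A change of library scale moves the line and the members together.

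Ratios within a sample do not depend on how libraries are scaled. The lowest, median and highest ratio of miR-221-3p to miR-222-3p reads over the 12 rats were 3.80, 5.26 and 9.12 before surgery, 3.99, 5.71 and 7.94 after 1 week, 3.29, 5.77 and 7.11 after 4 weeks, and 5.61, 8.66 and 11.9 after 8 weeks. At week 8 the ratio was higher than at baseline in 11 of 12 rats, and 6 of the 12 values exceeded every baseline value. The mean log2 ratio rose by 0.66 (SE 0.14), a 1.57-fold change, with an exact sign-flip p = 0.00195 over the 12 rats (adjusted p = 0.0156 over 8 tests). The reads of miR-221-3p and miR-222-3p, whose hairpins are neighbours, therefore did not change by the same factor between baseline and week 8. The ratio differed from baseline by 0.12 on the log2 scale at week 1 (SE 0.10, exact p = 0.263) and by -0.01 at week 4 (SE 0.14, exact p = 0.937). Such a ratio does not remove differences in how well each sequence is ligated, and the week 8 libraries stood apart. Their part in the ratio was not tested. The arms of a single hairpin are another comparison. By edgeR at week 8, those of miR-144 parted (log2 fold change 1.15 for 5p and -0.41 for 3p). So did those of miR-142 (-1.26 for 5p and 1.16 for 3p), while those of miR-126a did not (0.07 for 5p and 0.18 for 3p). How common such parting was among all miRNAs was not counted.

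The ratio of the 3p to the 5p arm of miR-221 rests on few 5p reads. The median ratio at the 4 time points was 329, 376, 461 and 444 in turn, and single rats ranged from 179 to 1695. The mean log2 ratio was 0.70 higher at week 8 than at baseline (SE 0.30, higher in 10 of 12 rats), with an exact p = 0.0430 that did not pass after adjustment (adjusted p = 0.172 over 8 tests). At weeks 1 and 4 the differences were 0.25 (SE 0.13, exact p = 0.0815) and 0.32 (SE 0.28, exact p = 0.271).

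**Figure D3:**
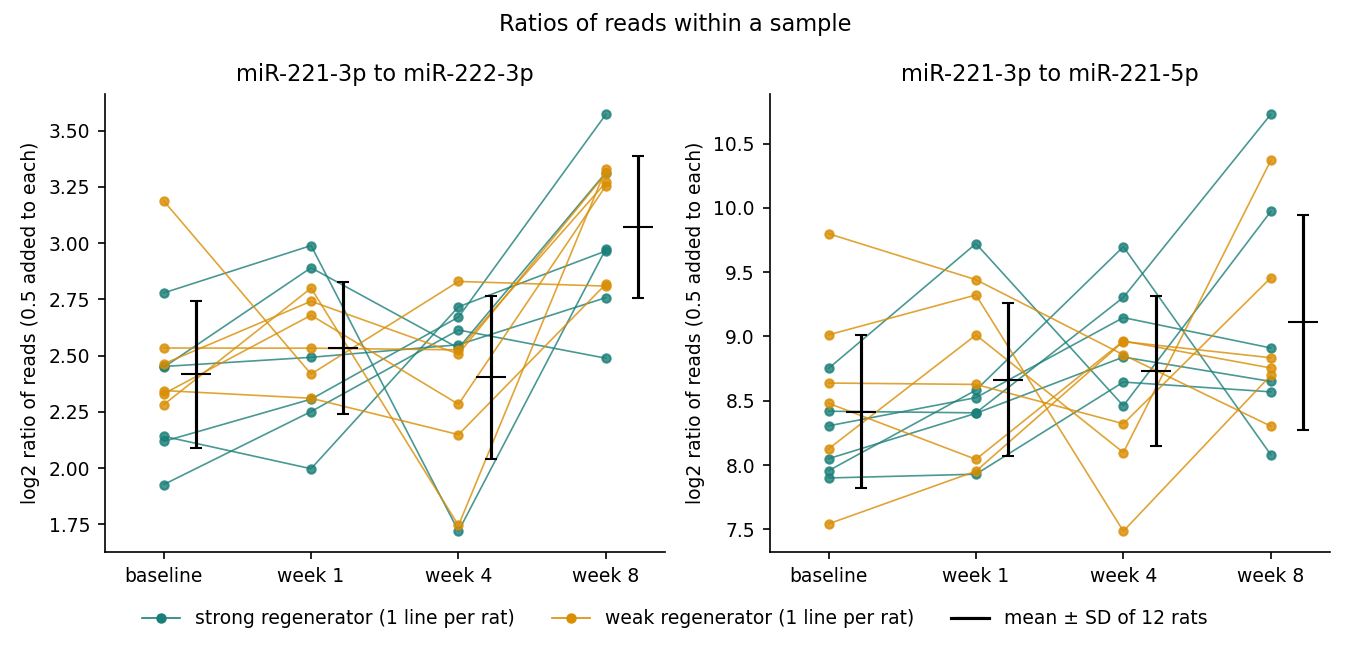
Log2 ratio of miR-221-3p reads to miR-222-3p reads and to miR-221-5p reads in each sample (vertical axes, which do not start at 0), with 1 line per rat by time point and the mean ± SD of 12 rats in black. The ratio to miR-222-3p is higher at week 8 than at baseline in 11 of 12 rats, the exception being a rat whose baseline ratio was the highest at 9.12.

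Over the 12 rats of a time point, miR-221-3p and miR-222-3p were only loosely related. On log2(RPM + 1), Pearson's r at the 4 time points was 0.44, 0.52, 0.55 and 0.19 in turn, and Spearman's rho was 0.47, 0.53, 0.57 and 0.17 (permutation p between 0.0586 and 0.590, adjusted p of at least 0.179 over 8 relations). Without the 2 rats farthest from the median of miR-221-3p, r was 0.19, 0.56, 0.82 and -0.14. At baseline r was thus lower without rats 2 and 29, while at week 4 r was higher without rats 5 and 7. Leaving out the rats farthest from the median narrows the range of miR-221-3p, which can by itself lower r. For miR-221-3p and miR-221-5p, r was 0.52, -0.23, 0.50 and 0.47 at the 4 time points. The largest rho, 0.74 at baseline, had a permutation p = 0.00757 (adjusted p = 0.0606), and r fell to 0.38 without the same 2 rats.

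**Figure D4:**
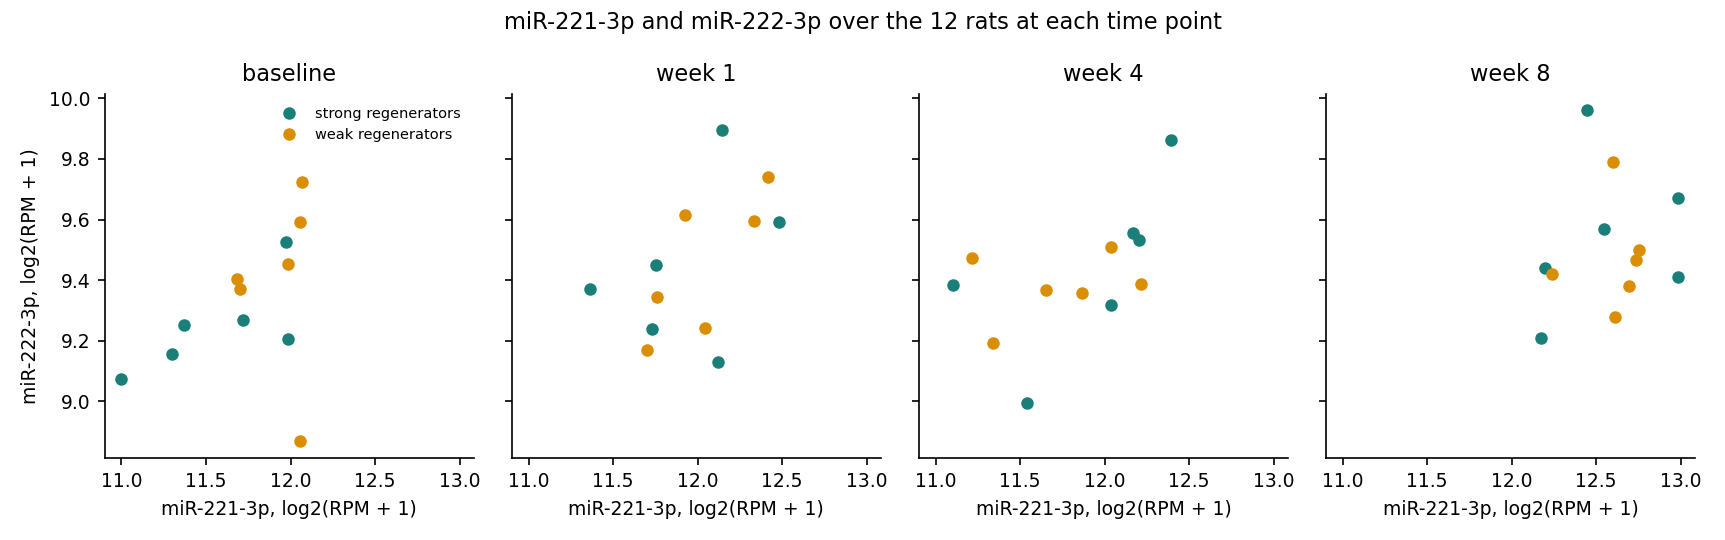
Level of miR-222-3p against miR-221-3p, both as log2(RPM + 1), for the 12 rats at each time point, strong regenerators in green and weak regenerators in orange. The week 8 points lie to the right of all baseline points along the miR-221-3p axis and overlap with them along the miR-222-3p axis, and r is 0.19 at week 8.

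Across all 48 samples, miR-221-3p varied most like miRNAs other than its neighbour. On log2(RPM + 1) the highest r among the 310 abundant miRNAs were those of miR-30e-3p (0.91), miR-22-3p (0.88), miR-363-3p (0.87), miR-30a-3p (0.87) and miR-301a-3p (0.85), whereas miR-222-3p (0.48) ranked 72 and miR-221-5p (0.34) ranked 90. At week 8 these 5 miRNAs had log2 fold changes of 1.08, 0.75, 1.01, 0.85 and 1.19 against baseline by edgeR, where 14.2% of all miRNAs tested were called higher. They were picked by likeness over samples that include week 8, so that their rise follows in part from this choice and is no separate test. With the mean of each group and time point removed, the most like were miR-22-3p (0.83), miR-30e-3p (0.82), miR-423-3p (0.79), miR-126a-5p (0.78) and miR-363-3p (0.77), and miR-222-3p had an r of 0.41. These values describe samples that share rats, time points and the miRNA total, and they carry no test.

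For miR-222-3p the highest r were lower, with miR-147 (0.53), miR-1247-5p (0.51), miR-429 (0.49) and miR-223-3p (0.49), then miR-221-3p (0.48), which ranked 5, and miR-155-5p (0.48). After removal of the group means they were with miR-27a-3p (0.62), miR-149-5p (0.56), miR-147 (0.55), miR-342-3p (0.55) and miR-148a-3p (0.53), and miR-221-3p (0.41) ranked 34. For miR-221-5p the highest were miR-30d-3p (0.41), miR-331-3p (0.37), miR-126a-3p (0.36), miR-1843b-5p (0.35) and let-7f-2-3p (0.35). After removal of the group means, miR-30d-3p (0.46), miR-30e-3p (0.45), miR-301a-3p (0.42), miR-221-3p (0.40) and miR-1843a-5p (0.40) came first.

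Strong and weak regenerators did not differ detectably in any member. Over all time points, the log2 differences of strong minus weak by edgeR were -0.13 for miR-221-3p (SE 0.09, 95% interval -0.30 to 0.05, FDR = 0.708), -0.07 for miR-222-3p (SE 0.07, interval -0.20 to 0.06, FDR = 0.758) and -0.19 for miR-221-5p (SE 0.21, interval -0.60 to 0.21, FDR = 0.818). Of all 645 miRNAs, 0% were called in this comparison by edgeR, 64 had an unadjusted p under 0.05, and DESeq2 called 0. Without the week 8 libraries the differences were -0.09, -0.06 and -0.18, in the same order. At the single time points, the edgeR differences went from -0.34 to 0.16 for miR-221-3p and from -0.19 to 0.03 for miR-222-3p, and the one farthest from 0 for miR-221-5p was -0.44 at week 4. None of these passed the test, with 0.155% of the 645 miRNAs called at week 8 and 0% at each of the other time points.

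The widest gap for miR-221-3p was at baseline, before surgery. The strong regenerators had 2047 to 4052 RPM and the weak ones 3290.1 to 4292 RPM, so that the 3 lowest values were all of strong regenerators (rats 29, 2 and 17) while the ranges overlapped. The mean log2 level was 0.37 lower in strong regenerators (difference -0.37, SE 0.18), with an exact permutation p = 0.0563 over all splits of the 12 rats into groups of 6 and an adjusted p = 0.844 over 15 tests. Against baseline, miR-221-3p was higher in 6 of 6 strong and 3 of 6 weak regenerators at week 1, in 4 and 2 at week 4, and in 6 and 6 at week 8. The change from baseline in strong minus that in weak regenerators was 0.19, 0.50 and 0.16 at weeks 1, 4 and 8 on the log2 scale by edgeR (SE 0.25 each). At week 4 the unadjusted p was 0.0534 and the FDR 0.705, and 0% of the 645 miRNAs were called in any of these 3 comparisons. For miR-222-3p the corresponding values were 0.13, 0.22 and 0.14 (SE 0.20 each), and for miR-221-5p 0.16, -0.28 and -0.02 (SE 0.59 to 0.61). The log2 ratio of miR-221-3p to miR-222-3p, averaged over the 4 samples of a rat, differed by -0.07 in strong minus weak regenerators (SE 0.09, exact p = 0.429), and that of the 3p to the 5p arm differed by 0.04 (SE 0.20, exact p = 0.861).

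Part of the red blood cell markers rose at week 8, as miR-221-3p did. Plasma holds RNA from many sources, and the counts cannot tell more cells of a type from more RNA per cell. The 6 red blood cell miRNAs, which include miR-451-5p and the miR-144 pair of erythroid cells, took a summed median of 261475 RPM at baseline, with a range from 200449 to 303666 RPM, and of 324202 RPM at week 8, with a range from 272042 to 380829 RPM. At week 8, when 14.2% of all miRNAs tested were called higher and 26.1% lower, 3 of the 6 rose (miR-451-5p by a log2 fold change of 1.04, miR-144-5p by 1.15 and miR-363-3p by 1.01) and 1 fell (miR-144-3p, log2 fold change -0.41), with miR-16-5p at -0.09 and miR-486 at 0.25, and the median over the list was 0.63 against -0.26 over all miRNAs tested. At week 1, when 12.5% of all miRNAs tested were called higher and 9.05% lower, 4 of 6 rose and none fell, with a list median of 0.46 against -0.0074 over all miRNAs tested. The log2 ratio of miR-451-5p to miR-23a-3p, a measure of haemolysis, had medians of 2.30, 2.74, 2.55 and 3.03 at the 4 time points. Its ranges overlapped, from 0.75 to 2.93 at baseline and from 2.30 to 3.57 at week 8. miR-23a-3p was itself called higher at week 8 (log2 fold change 0.27, edgeR FDR = 0.0304). The part of red blood cells in the rise of miR-221-3p was not tested.

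The other marker lists at week 8 are read against the same shares, 14.2% called higher and 26.1% lower, and against the median of -0.26 over all miRNAs tested. Of the 7 leukocyte miRNAs, with a list median of -0.92, 2 rose (miR-142-3p, log2 fold change 1.16, and miR-155-5p, 0.92) and 5 fell. Among the fallen were the most abundant ones, miR-150-5p (log2 fold change -1.52), miR-342-3p (-0.92) and miR-146a-5p (-1.73). The sum of the 7, in which these weigh most, went from 22196 to 72612 RPM at baseline (median 42843) to 13210.1 to 31012 RPM at week 8 (median 17857). Of the 8 platelet miRNAs, none rose and 4 fell, and the list median of -0.29 was near that of all miRNAs, with miR-191a-5p at 0.03, miR-223-3p at 0.12 and miR-24-3p at -1.50, and the sums overlapped (81346 to 103495 RPM at baseline and 63531 to 102459 RPM at week 8). Of the 6 miRNAs of the vascular wall, miR-145-5p of smooth muscle rose (log2 fold change 0.90) and none fell, a count near the share of all miRNAs called higher, with a list median of 0.23, miR-143-3p at -0.22, miR-126a-5p at 0.07, miR-126a-3p at 0.18 and sums of 20470.1 to 58135 RPM at baseline and 20638 to 86990 RPM at week 8. No marker of these lists was at 0 in any group of libraries, and their part in the levels of the members was not tested.

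Other miRNAs that act in the same processes moved in both directions. Of 29 further miRNAs known from vessel growth, 3 rose and 2 fell at week 1 (of all miRNAs tested, 12.5% were called higher and 9.05% lower), none rose and 3 fell at week 4 (0.155% and 4.03%), and 7 rose and 10 fell at week 8 (14.2% and 26.1%), with a median log2 fold change at week 8 of -0.09 against -0.26 over all miRNAs tested. The 3 most abundant were miR-16-5p (log2 fold change -0.09 at week 8), miR-92a-3p (0.39, risen) and miR-21-5p (-0.91, fallen). Of 29 miRNAs known from osteoblast differentiation, 25 passed the filter at week 1, where 1 rose and 2 fell, none rose and 1 fell at week 4, and 8 rose and 14 fell at week 8, with a median of -0.54. Among its most abundant members were miR-21-5p, miR-29a-3p (-0.68, fallen) and miR-26a-5p (0.91, risen). miR-21-5p, miR-23a-3p and miR-27a-3p stand in both lists. Between strong and weak regenerators, none of the members of any list was called.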

How the data were processed

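The authors deposited raw read counts of 645 rat miRNAs and 3 spike-ins, without normalization. Per the methods and labels, plasma RNA was sequenced after single-adapter ligation, and reads were trimmed (cutadapt 3.3) and mapped (Bowtie 1.3.0, miRDeep2) to a genome, then to rat miRBase entries. The submitters' notes name a human build, whereas the methods name a rat one.

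The members and lists were chosen with earlier results of these data known. The miRNAs named are the members, the 5 most like each, the 3 most abundant of each list, those a count singles out and those the paper reports between regeneration groups. Counts of all 48 samples, with 393259 to 1586398 reads each, were fitted with edgeR 4.0.16 in R 4.3.3 (TMM, quasi-likelihood, independent filter on mean abundance, Benjamini-Hochberg, calls at an FDR under 0.05). The fits were tried on simulated counts with known changes, drawn without an effect of the rat. No share of recovered changes was required there for strong against weak regenerators at a single time point. Time was fitted alone, regeneration with time as a covariate, and single weeks and interactions in a model of 8 groups. As the study names no animal term, the samples of a rat were treated as independent. Same-numbered samples come from the same rat per the labels, and their deviations from group means correlated by 0.107 on average, against -0.008 between rats. Intervals are normal 95% intervals of the estimate. Exact tests over rats used log2(RPM + 1) or log2 ratios with 0.5 reads added (4096 sign patterns, or all splits of the rats), and correlations used 100000 permutations, all two-sided. No library copied another (chi-square per degree of freedom of at least 16.4 over 1128 pairs). Alternatives were other scalings, filters and tools (DESeq2 1.42.0, limma 3.58.1), the rat as a block, fewer samples, and each rat left out. The spike-in scaling between neighbouring weeks and all settings within a regeneration group were chosen after seeing the data. The exact tests over rats of week 4 against baseline, and of week 8 against week 1 and against baseline, were also not planned. The filling of each defect is not in the labels and was not a covariate. Python 3.11.15 was used with numpy 2.4.6, scipy 1.17.1, pandas 2.3.3 and matplotlib 3.10.9. RefSeq held 583 of the 645 miRNAs by name.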

Additional observations from a re-analysis of the deposited data

Results flagged for a closer look

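In 5 of the 40 groups of 6 rats screened, 1 rat stood apart from the others by Dixon's criterion (gap over range above 0.625), which chance gives in about 1 of 20 groups. miR-221-3p in weak regenerators at week 8 was lowest in rat 26 at 4832 RPM, with the next at 6200.5 RPM. miR-221-5p in strong regenerators at week 4 was highest in rat 21 at 14.8 RPM, with the next at 7.59 RPM. The log2 ratio of miR-221-3p to miR-222-3p was highest in rat 25 among the weak regenerators at baseline, at 3.19 against 2.53 for the next, and lowest in rat 5 among the strong regenerators at week 4, at 1.72 against 2.53 for the next. The log2 ratio of the 3p to the 5p arm of miR-221 was highest in rat 21 among the strong regenerators at week 1, at 9.72 against 8.58 for the next.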

How the results depend on the processing

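The week 8 rise of miR-221-3p passed the test in every planned setting except the spike-in scaling, which reversed it, and without each rat in turn (log2 fold change 0.88 to 1.09). The week 1 call of miR-221-3p was lost with library size (0.24), RLE (0.34), spike-in scaling (0.013), filterByExpr (0.35), no filter (0.34), DESeq2 (0.34), limma-voom (0.34) and only the time points compared (0.36), with FDRs of 0.0523 to 0.976, and leaving out 1 rat gave 0.26 to 0.38, past the test only without rat 26. With the replicate block of the rat it was 0.33 and not called, the number called between weeks 4 and 1 went from 0 to 4 (1 with DESeq2), and no other call named here changed under the block. miR-222-3p at week 1 was called with filterByExpr (0.22) and DESeq2 (0.21), and at week 8 it was not called with library size (0.18) or only the time points compared (0.26), with 0.17 to 0.40 without 1 rat.

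The spike-in scaling reversed miR-221-5p (-0.25) and miR-222-3p (-0.084) at week 1, miR-221-3p (-0.19) and miR-222-3p (-0.19) at week 4, and at week 8 miR-221-3p (-1.05), miR-221-5p (-1.63) and miR-222-3p (-1.67), and between weeks 8 and 4 it gave -0.86, -1.10 and -1.48 for them. Within strong regenerators it gave -0.98 for miR-221-3p and -1.64 for miR-222-3p at week 8, and within weak ones -1.11 and -1.71. It called 61 miRNAs at week 4, 499 at week 8 and 468 between weeks 8 and 4, against 27, 250 and 213. Within strong regenerators, miR-222-3p at week 8 was called with RLE (0.44) and DESeq2 (0.45), and within weak ones with DESeq2 (0.31). At week 1, 50 miRNAs were called, 32 with library size, 25 with no filter and 24 to 47 without 1 rat. The cause of these shifts was not tested.

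Values near 0 changed sign without a call. With library size these were miR-221-5p at week 1 (-0.091), and in strong against weak regenerators miR-221-5p (0.060) and miR-222-3p (0.0020) at week 1, miR-222-3p at week 8 (0.081) and the week 8 change of miR-221-5p (0.18). miR-221-5p at week 1 in strong against weak regenerators was 0.012 with RLE and 0.012 with DESeq2. Without 1 rat, miR-221-5p ranged from -0.070 to 0.15 at week 1 and from -0.36 to 0.076 at week 4, the ratio of miR-221-3p to miR-222-3p from 0.080 to 0.20 at week 1 (past the test without rat 25, adjusted p = 0.0469) and from -0.077 to 0.081 at week 4, and that of the 3p to the 5p arm from 0.55 to 0.89 at week 8 (past the test without rat 6, adjusted p = 0.0156) and from -0.060 to 0.13 in strong against weak regenerators. The number called between strong and weak regenerators was 0 to 2 without 1 rat, and at week 8 the 1 call went to 0 with DESeq2. At 2 to 25 reads per sample, depth limits what can be said of miR-221-5p.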
